A study of Mus musculus with 12 samples.

Results

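The comparison described here set homozygous mutant embryos (Eftud2-/-) against heterozygous embryos (Eftud2+/-), which the labels call control, at embryonic day 9.5. Its members were chosen by their labels alone and are 6 of the 12 libraries of the series, 3 per genotype, and the differences are described across all genes. The other 6 libraries are the same genotypes at embryonic day 9.0 (E9.0), again 3 per genotype. All embryos were of strain C57Bl/6 and untreated, and the alteration of Eftud2 was made in neural crest cells only, per the labels. Every group therefore carried at least 1 altered allele, and no wild-type embryo was measured. The Cre driver, the number of embryos in a library and their somite numbers are not given in the sources used here. The labels name the material in 3 ways, as neural crest cells, as cranial nerve ganglia and as heads stored for RNA extraction.

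Eftud2 encodes a GTPase that belongs to the U5 particle of the spliceosome and rearranges RNA contacts as introns are removed. In people, loss of 1 copy causes mandibulofacial dysostosis with microcephaly. Neural crest cells leave the dorsal edge of the neural tube, move into the head and pharyngeal arches, and form facial cartilage and bone, the glia and part of the neurons of cranial ganglia, and smooth muscle. The title of the series names mis-splicing of Mdm2, whose product holds the transcription factor p53 in check. Counts per gene do not show splicing, so splicing was not analysed here.

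The 6 libraries held 24165537 to 31172708 counts and 18112 to 18828 genes with at least 1 count. Rn45s, the ribosomal RNA precursor, took 4.4% to 5.9% of the counts. The libraries held transcripts of many cell types. Sox2 of neural progenitors was at 161, 199 and 174 CPM in heterozygous libraries and 178, 177 and 182 in homozygous ones, the embryonic globin Hbb-bh1 at 2303, 2326 and 1673 against 1601, 1200.3 and 2067 CPM and the cardiac troponin Tnnt2 at 120.0, 133 and 128 against 138, 179 and 191 CPM, while the crest marker Sox10 was at 7.65, 10.2 and 8.67 against 4.96, 4.08 and 2.89 CPM. Levels are CPM, the counts of a gene relative to the TMM-adjusted library size. Transcripts of neural tube, blood and heart were thus present beside those of crest, and a change in level cannot tell fewer cells of a type from less RNA per cell. In a principal component analysis of the 6, the first component (35.2% of the variance) separated the genotypes. On it heterozygous replicate 2 stood apart at 26.39, against 10.2 and 10.95 for replicates 1 and 3 and −20.63 to −12.54 for the homozygous libraries. In that library the 20 boundary genes described below summed to 482 CPM against 334 and 357 in the other heterozygous libraries. Its endothelial genes summed to 307 against 424 and 440.3, and its facial ectomesenchyme genes to 329 against 509 and 486. Sex-linked transcripts also differed. Homozygous replicate 1 had Xist at 368 CPM and 0 counts of the Y-linked genes, heterozygous replicate 1 and homozygous replicate 2 had Y-linked transcripts at 215 and 202 CPM with little Xist, and the other 3 libraries had both.

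Eftud2 (chr11:102838473-102880985 on GRCm38, minus strand) was measured first because it checks the labels. It stood at 248, 255 and 264 CPM in heterozygous libraries and 226, 221 and 226 in homozygous ones, so that every homozygous library lay below every heterozygous one. The log2 difference of −0.19 ± 0.053 (edgeR adjusted p 0.0906) did not pass the threshold of 0.05, and the exact two-sided permutation test gave 0.1, the smallest p that 3 libraries against 3 allow. Here and below a ± on a log2 difference is the SE of the fit, negative differences are lower in the homozygous libraries, and levels given against each other are heterozygous first. Among the 17 proteins of the U5 and tri-snRNP particles, which Eftud2 works with, edgeR called 0, against 1.89% of all tested genes, and DESeq2 called 1. The median log2 difference was −0.026, and 4 of the 17 had an unadjusted p under 0.05. That median changed sign with single libraries, from −0.067 (without homozygous replicate 1) to 0.013 (without homozygous replicate 3). Snrnp200, the helicase that unwinds U4 from U6, was at 423 ± 33.1 CPM heterozygous and 480.1 ± 32.8 CPM homozygous (mean ± SD, n = 3), a log2 difference of 0.18 ± 0.064 (edgeR adjusted p 0.199). Prpf8, the scaffold at the catalytic centre, differed by 0.093 ± 0.082 (edgeR adjusted p 0.725).

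Across all genes, 280 of 14810 tested (1.89%) differed between the genotypes at an edgeR adjusted p under 0.05. Of these 176 (1.19%) were higher and 104 (0.702%) were lower in the homozygous libraries. The falls were the larger changes. Their median log2 difference was −0.83 against 0.58 for the rises and −0.0026 for all tested genes, 38 falls and 11 rises were over 2-fold, and 14 falls and 1 rise were over 4-fold. In each of the 280 the CPM ranges of the genotypes did not overlap, which held for 20.9% of all tested genes. At an unadjusted p under 0.05 there were 1984 genes, 13.4% of those tested, the share against which such counts for the lists below are to be read. Of the 280, 86 passed in all 6 fits that each left out 1 of the E9.5 libraries (38 lower and 48 higher), and 30 passed in none. Without heterozygous replicate 2 the count was 151, 80 higher and 71 lower, of which 126 were among the 280. Heterozygous replicate 2 was the highest heterozygous library in 63 of the 104 falls and the lowest in 122 of the 176 rises. Without homozygous replicates 1, 2 and 3 it was 168, 133 and 136. Scaling by total counts alone gave 123 genes, of which 47.2% were higher in place of 62.9%. The TMM factors lay close together in the E9.5 libraries (1.09 to 1.11). They ranged from 0.664 to 1.05 in the E9.0 libraries, which enter the same fit. The cause of the lower count was not tested. The lower genes had median levels of 10.8 CPM in the heterozygous libraries and the higher ones 12.5, against 19.8 over all tested genes, and their median transcript lengths were 3083.5 and 4103.5 bases against 3397.

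**Figure D1:**
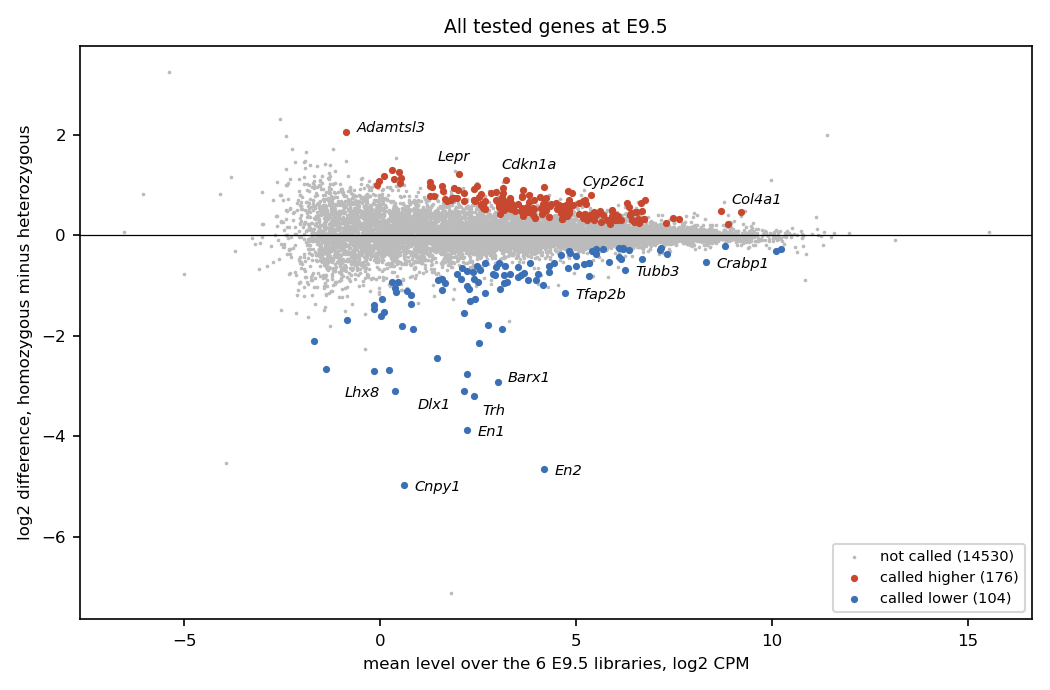
Log2 difference between homozygous and heterozygous E9.5 libraries (vertical axis) against the mean level over the 6 libraries in log2 CPM (horizontal axis), 1 point per tested gene. The 104 called lower genes (blue) reach below −4, while 1 of the 176 called higher genes (red), Adamtsl3, lies above 2.

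The 3 largest called falls were in genes of the midbrain and hindbrain boundary, a signalling centre whose Wnt and FGF ligands pattern the midbrain and cerebellum. En2, a homeobox transcription factor of this region, stood at 24.3, 49.7 and 30.6 CPM in heterozygous libraries and 1.05, 1.81 and 1.27 in homozygous ones, a log2 difference of −4.64 ± 0.39 (edgeR adjusted p 0.000694). Its relative En1 was at 5.52, 13.2 and 7.64 CPM in heterozygous libraries and 1.01, 0.553 and 0.188 in homozygous ones, a difference of −3.88 ± 0.50 (edgeR adjusted p 0.00585). Cnpy1, a gene of this boundary, had 1.19, 5.17 and 2.52 CPM in the heterozygous libraries and 1, 3 and 4 counts in the homozygous ones (edgeR adjusted p 0.00108). Heterozygous replicate 2 was the highest library in each of the 3, and the other 2 heterozygous libraries also lay above all homozygous ones. Pax5, a paired-box factor that acts with the engrailed genes, stood at 2.44, 7.92 and 3.62 against 0.641, 1.14 and 0.788 CPM (log2 difference −2.44 ± 0.43, edgeR adjusted p 0.0163). The boundary ligand Wnt1 stood at 6.77, 8.89 and 6.46 against 3.78, 4.15 and 3.68 CPM and differed by −0.93 ± 0.17 (edgeR adjusted p 0.00914). Fgf18, an FGF ligand, was at 3.54, 4.52 and 3.59 against 2.26, 1.78 and 2.36 CPM, a difference of −0.87 ± 0.18 (edgeR adjusted p 0.0205). Il17rd, a feedback inhibitor of FGF signalling, was at 109, 137 and 115 against 73.5, 94 and 90.8 CPM, a difference of −0.48 ± 0.10 (edgeR adjusted p 0.0194). 

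Of the 20 listed boundary genes, all tested, those 7 were lower, 0 were higher and 18 had a negative difference, with a median of −0.38. Of all tested genes 0.702% were called lower and 49.2% had a positive difference. Fgf8, the organising ligand, was not called at 13, 15.4 and 10.8 against 8.26, 10.6 and 10.7 CPM (log2 difference −0.41 ± 0.14, edgeR adjusted p 0.163). Otx2, which sets the forward side of the boundary, was not called at 41.7, 67.1 and 42.7 against 31.7, 35.9 and 41 CPM (log2 difference −0.48 ± 0.16, edgeR adjusted p 0.21). The groups did not overlap for either. All 7 called genes had heterozygous replicate 2 as their highest library. Without that library 5 of the 20 were called and the median was −0.24, and without homozygous replicate 1, 4 were called and the median was −0.30. En1, En2, Cnpy1 and Wnt1 passed whichever E9.5 library was left out. Pax5 missed the threshold without homozygous replicates 1 or 3, Il17rd without heterozygous replicate 2 or homozygous replicate 1, and Fgf18 without heterozygous replicate 2 or homozygous replicates 1 or 2.

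Among the large falls outside that list were Trh and 2 genes of the midbrain. Trh, the precursor of thyrotropin-releasing hormone, was at 6.83, 14.1 and 7.81 CPM in heterozygous libraries and 1.11, 1.26 and 0.713 in homozygous ones, a log2 difference of −3.20 ± 0.31 (edgeR adjusted p 0.000177). Tal2, a basic helix-loop-helix factor of midbrain GABAergic neurons, was at 6.01, 14.6 and 7.39 against 2.16, 2.27 and 1.91 CPM (log2 difference −2.14 ± 0.29, edgeR adjusted p 0.00266). The homeobox gene Dmbx1, expressed in diencephalon and midbrain, was at 10.2, 19.3 and 11.5 against 2.97, 4.3 and 4.05 CPM (log2 difference −1.86 ± 0.22, edgeR adjusted p 0.00106). These 3 passed in all 6 leave-one-out fits, and in each of them heterozygous replicate 2 was again the highest library. 

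Forebrain genes moved both ways. Of 23 tested forebrain and eye field genes 1 was higher, 2 were lower (1.89% of all tested genes were called) and 14 had a positive difference, with a median of 0.20. The median was 0.021 without homozygous replicate 3, 0.11 without heterozygous replicate 1 and 0.31 without homozygous replicate 1, and 2 of the 23 were called whichever E9.5 library was left out. Rax, which specifies the eye field, was at 4.18, 3.64 and 4.97 CPM in heterozygous libraries and 8.2, 6.05 and 7.43 in homozygous ones and rose by 0.76 ± 0.16 (edgeR adjusted p 0.0178); it missed the threshold without heterozygous replicate 2 or homozygous replicates 1 or 3. Mab21l2, expressed in the optic cup, arches and dorsal midbrain, was at 23, 28.5 and 20.1 against 10.8, 12.4 and 12.9 CPM and was lower (log2 difference −0.99 ± 0.12, edgeR adjusted p 0.000694). Barhl1, a homeobox gene of diencephalic and hindbrain neurons, was at 1.4, 0.968 and 1.49 against 0.236, 0.43 and 0.825 CPM (log2 difference −1.38 ± 0.34, edgeR adjusted p 0.0476) and passed in 2 of the 6 leave-one-out fits. Six6 of the eye field was at 10.2, 9.22 and 8.91 against 12, 12.4 and 15.6 CPM (log2 difference 0.50 ± 0.13, edgeR adjusted p 0.0664) and was not called. None of the 18 hindbrain and anterior Hox genes was called (0 at an unadjusted p under 0.05 and 0 with DESeq2), and their differences ran from −0.21 to 0.39 with a median of 0.10. That median ran from 0.02 (without homozygous replicate 1) to 0.17 (without homozygous replicate 3). 

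**Figure D2:**
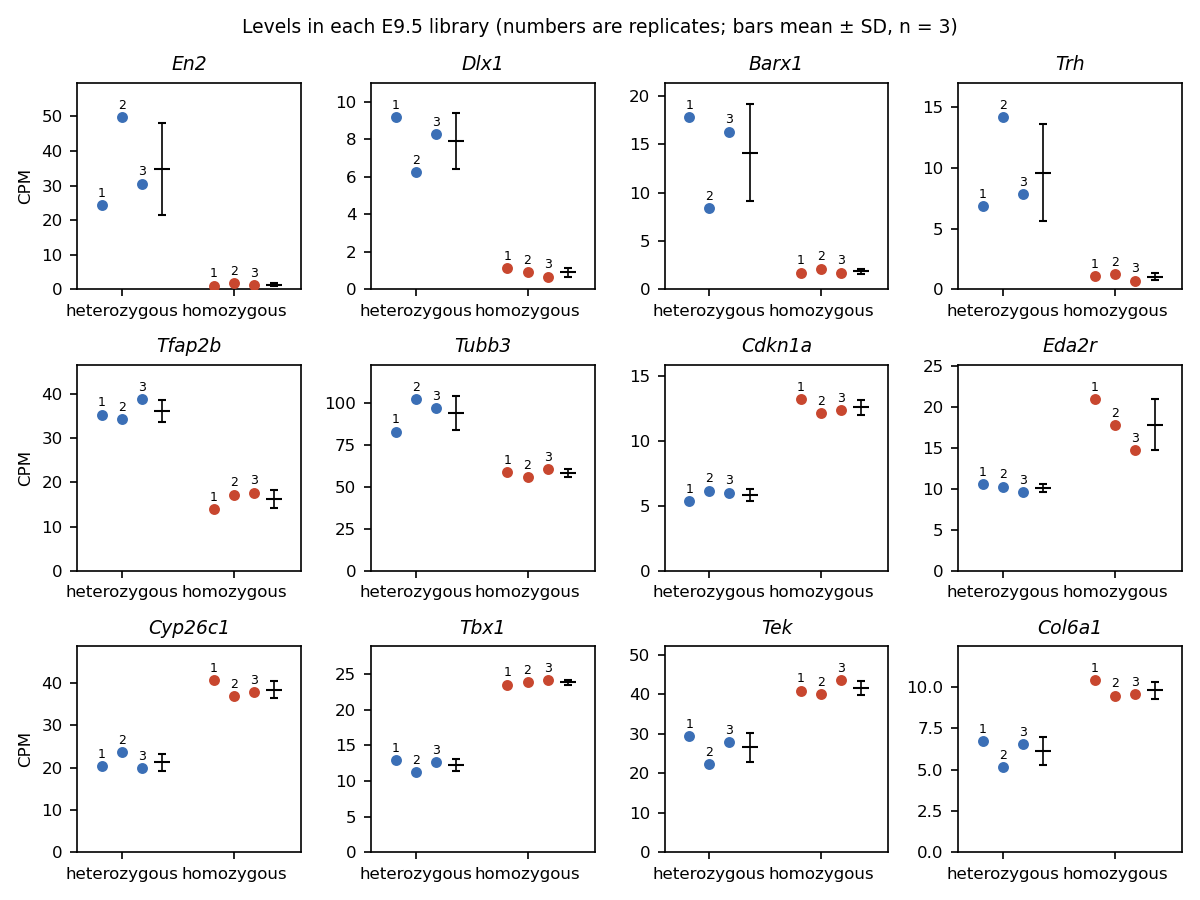
CPM (vertical axis, from 0) of 12 called genes in each E9.5 library, heterozygous in blue and homozygous in red, with the replicate number above each point and the mean ± SD (n = 3) beside the points. No panel has overlapping groups, and heterozygous replicate 2 is the highest library for En2 and Trh and the lowest heterozygous library for Dlx1, Barx1 and Tek.

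Wnt and FGF genes were followed beyond the boundary because the boundary signals through both pathways. Of 31 Wnt ligands, receptors and targets, all tested, 3 were lower and 0 higher, with a median of −0.19, against 0.702% of all tested genes called lower. Besides Wnt1 these were Rspo1, a secreted enhancer of Wnt reception, at 12, 12.9 and 12.8 against 6.34, 7.77 and 7.88 CPM (log2 difference −0.78 ± 0.12, edgeR adjusted p 0.00243), and Axin2, a feedback target of the pathway. Axin2 was at 72.4, 94.6 and 79 against 60.3, 58.5 and 59.7 CPM (log2 difference −0.46 ± 0.091, edgeR adjusted p 0.0154). Rspo1 passed in all 6 leave-one-out fits. Axin2 passed in 2 of them, those without heterozygous replicates 1 or 3. Of 20 tested FGF ligands, receptors and feedback targets Fgf18 and Il17rd were called, both lower, and the median was −0.049. The count was 0 without homozygous replicate 1 and 1 without heterozygous replicate 2 or homozygous replicate 2, with scaling by total counts or with the E9.5 libraries alone. The median ran from −0.090 (without homozygous replicate 2) to −0.011 (without homozygous replicate 1). Dusp6, a phosphatase induced by FGF signalling, was at 113, 87.8 and 105 against 86, 87.8 and 85.9 CPM (log2 difference −0.23 ± 0.073, edgeR adjusted p 0.13) and was not called.

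Part of the migrating neural crest genes were lower. Of 17 listed and tested, 6 were lower and 0 higher, 15 had a negative difference and the median was −0.23, against 0.702% of all tested genes called lower. Without heterozygous replicate 2 the median was −0.41. Tfap2b, an AP-2 transcription factor, was at 35.3, 34.3 and 38.9 CPM in heterozygous libraries and 14, 17.2 and 17.7 in homozygous ones, a log2 difference of −1.15 ± 0.10 (edgeR adjusted p 2e-05). Sox10, needed for crest glia and pigment cells, differed by −1.14 ± 0.21 (edgeR adjusted p 0.0148). Foxd3, an early crest factor, was at 2.99, 1.58 and 2.38 against 1.08, 0.583 and 0.30 CPM, a difference of −1.80 ± 0.34 (edgeR adjusted p 0.0148). Pax7 and Pax3 are paired-box factors of the dorsal neural tube and crest. Pax7 stood at 12.5, 18.7 and 12.6 against 6.78, 9.06 and 8.74 CPM, a difference of −0.84 ± 0.17 (edgeR adjusted p 0.0194). Pax3 stood at 29.9, 41.9 and 29.5 against 21.1, 22.4 and 21.3 CPM, a difference of −0.65 ± 0.11 (edgeR adjusted p 0.00544). Crabp1, a retinoic acid binding protein of crest and hindbrain, was at 370.5, 388 and 376 against 299, 269 and 219 CPM (log2 difference −0.53 ± 0.10, edgeR adjusted p 0.0138). Other crest factors were not called. Sox9 was at 37.8 ± 3.38 CPM heterozygous and 37.3 ± 2.04 CPM homozygous (mean ± SD, n = 3), a log2 difference of −0.019 ± 0.087 (edgeR adjusted p 0.967), and Ets1 at 77.2 ± 21.9 CPM heterozygous and 102 ± 16 CPM homozygous, a difference of 0.40 ± 0.19 (edgeR adjusted p 0.417). The 17 genes summed to 813, 829.6 and 839 in heterozygous and 716, 656 and 632 in homozygous libraries, in CPM. Tfap2b, Pax3 and Crabp1 passed in all 6 leave-one-out fits, Sox10 and Foxd3 in 4 and Pax7 in 3. The count was 4 of 17 without homozygous replicate 2 or 3, and 3 with the E9.5 libraries fitted alone. 

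Among 11 tested genes of crest glia and Schwann cell precursors 4 were lower, against 0.702% of all tested genes, and 0 higher, with a median of −0.33, which was −0.20 without homozygous replicate 3. Besides Sox10, Cdh19, a cadherin of Schwann cell precursors, was at 1.92, 1.12 and 1.67 against 0.337, 0.184 and 0.188 CPM (log2 difference −2.70 ± 0.36, edgeR adjusted p 0.00092). Fabp7, a fatty acid binding protein of glia and radial progenitors, was at 22.1, 27.1 and 22.8 against 15.5, 14.8 and 16.8 CPM (log2 difference −0.61 ± 0.13, edgeR adjusted p 0.0194). Cdh19 passed in all 6 leave-one-out fits. Without heterozygous replicate 2 or homozygous replicate 2 the count was 2. Erbb3, the neuregulin receptor of the same cells, was at 31.7 ± 4.62 CPM heterozygous and 29.5 ± 4.41 CPM homozygous (mean ± SD, n = 3, log2 difference −0.10 ± 0.11, edgeR adjusted p 0.793) and was not called.

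In the facial ectomesenchyme, the crest-derived tissue that forms the jaw and face, 7 of 22 tested genes were lower and 0 higher, with a median of −0.46, against 0.702% of all tested genes called lower. Dlx1, a distal-less homeobox gene of the arches, was at 9.18, 6.25 and 8.28 CPM in heterozygous libraries and 1.15, 0.921 and 0.675 in homozygous ones, a log2 difference of −3.09 ± 0.21 (edgeR adjusted p 1.4e-06), the smallest adjusted p of all genes. Lhx8, a LIM homeobox gene of the oral side of the first arch, was at 2.71, 2.14 and 2.13 CPM in heterozygous libraries and 0.236, 0.368 and 0.188 in homozygous ones, a difference of −3.09 ± 0.28 (edgeR adjusted p 3.4e-05). Barx1, which marks arch mesenchyme where molars form, was at 17.8, 8.36 and 16.3 against 1.72, 2.15 and 1.73 CPM (log2 difference −2.91 ± 0.28, edgeR adjusted p 0.000146). Dlx2, the neighbour of Dlx1, was at 12.1, 8.36 and 11.2 against 3.0, 3.47 and 2.66 CPM (log2 difference −1.78 ± 0.19, edgeR adjusted p 0.000195). Dlx6, which acts downstream of endothelin, was at 4.54, 4.17 and 3.66 against 1.62, 2.64 and 1.46 CPM (log2 difference −1.10 ± 0.22, edgeR adjusted p 0.0147). Alx1 of the frontonasal mesenchyme was at 15, 6.93 and 11.9 against 5.63, 5.07 and 5.44 CPM (log2 difference −1.07 ± 0.23, edgeR adjusted p 0.0333). Msx1 was at 50.8, 44.5 and 48.3 against 31.8, 32.3 and 33.5 CPM (log2 difference −0.56 ± 0.067, edgeR adjusted p 0.000495). Dlx1, Lhx8, Barx1, Dlx2 and Msx1 passed in all 6 leave-one-out fits, Dlx6 in 4, and Alx1 in 1, that without heterozygous replicate 2. Without heterozygous replicate 2, 9 of the 22 were called and the median was −0.55. Twist1, Prrx1 and Prrx2, general markers of this mesenchyme and the first of the list, were not called. Twist1 was at 87.9 ± 18.9 CPM heterozygous and 71.9 ± 13.4 CPM homozygous, Prrx1 at 81.8 ± 20.3 CPM heterozygous and 52.9 ± 8.03 CPM homozygous and Prrx2 at 34.1 ± 4.52 CPM heterozygous and 36.4 ± 3.25 CPM homozygous (mean ± SD, n = 3). Arch genes of the endothelin branch, Hand2 (23.7 ± 6.65 CPM heterozygous and 24.9 ± 1.85 CPM homozygous, log2 difference 0.072 ± 0.20, edgeR adjusted p 0.935) and Dlx5 (3.97 ± 0.40 CPM heterozygous and 3.11 ± 0.301 CPM homozygous, log2 difference −0.35 ± 0.19, edgeR adjusted p 0.486), were not called either. Exons of Dlx1 and Dlx6 overlap antisense genes (Dlx1as and Dlx6os2), and reads of the pair cannot be told apart if strand was not used in counting.

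Signals to this mesenchyme were examined next. Of 10 endothelin pathway genes 2 were higher, where 1.19% of all tested genes were called higher and 0.702% lower. Ece1, the enzyme that activates endothelin, was at 80.2, 74 and 76.1 against 92.6, 97.6 and 93.9 CPM (log2 difference 0.30 ± 0.073, edgeR adjusted p 0.0424). Mef2c, a transcription factor that endothelin acts through, was at 37.8, 38.5 and 36.7 against 49.8, 48.3 and 46.1 CPM (log2 difference 0.35 ± 0.083, edgeR adjusted p 0.04). Both were lost in each of the 6 leave-one-out fits, with adjusted p up to 0.163 and 0.138. The ligand Edn1 (4.66 ± 0.826 CPM heterozygous and 5.87 ± 0.85 CPM homozygous) and its receptor Ednra (18.9 ± 1.87 CPM heterozygous and 20.9 ± 0.789 CPM homozygous) (mean ± SD, n = 3) were not called. Gas1, a coreceptor for Sonic hedgehog, was the 1 called gene of 15 in that pathway, at 188, 186 and 169.8 CPM in heterozygous libraries and 139, 140.1 and 139 in homozygous ones (log2 difference −0.38 ± 0.061, edgeR adjusted p 0.00408), and passed in all 6 leave-one-out fits. The count was 2 without heterozygous replicates 1 or 3 or homozygous replicate 2. The ligand Shh was at 16.8, 4.84 and 19.6 against 20.3, 16.5 and 21.5 CPM (log2 difference 0.50 ± 0.40, edgeR adjusted p 0.692), with heterozygous replicate 2 far below the others. The target Ptch1 was at 93.6, 73.7 and 109 against 122, 118 and 112 CPM (log2 difference 0.35 ± 0.12, edgeR adjusted p 0.199). Bmp2, a BMP ligand, was higher at 7.47, 9.71 and 6.89 against 11.2, 12.2 and 12.6 CPM (log2 difference 0.57 ± 0.12, edgeR adjusted p 0.0218). Fst, an inhibitor of activin and BMP, was higher at 18.2, 26.2 and 19.6 against 37.5, 33 and 26.9 CPM (log2 difference 0.60 ± 0.13, edgeR adjusted p 0.0278). These were 2 of 22 genes of that pathway. Scaling by total counts called 0 genes of the endothelin, hedgehog and BMP lists. Neither was called without heterozygous replicate 1, heterozygous replicate 3 or homozygous replicate 2. Bmp2 was also not called without homozygous replicate 3, nor Fst without homozygous replicate 1. 

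In neurons the changes went both ways. Of 27 tested genes of early neurons and cranial ganglia 2 were lower and 2 higher, against 0.702% and 1.19% of all tested genes, with a median of −0.087 and 17 at an unadjusted p under 0.05. Heterozygous replicate 2 was the highest heterozygous library in both falls and the lowest in both rises. The count of 4 was 2 without it or without homozygous replicates 2 or 3, and 1 without homozygous replicate 1, and the median ran from −0.14 (without heterozygous replicate 1) to −0.033 (without homozygous replicate 2). Tubb3, the neuronal tubulin, was at 83.1, 103 and 97.3 CPM in heterozygous libraries and 59.2, 55.9 and 60.6 in homozygous ones, a log2 difference of −0.69 ± 0.075 (edgeR adjusted p 0.000172). Pou4f1, a POU factor of sensory ganglion and midbrain neurons, was at 8.81, 15.8 and 10.5 against 5.8, 5.31 and 7.13 CPM (log2 difference −0.95 ± 0.17, edgeR adjusted p 0.0107). Ebf1, a factor of differentiating neurons and mesenchyme, was higher at 12, 10.2 and 13.1 against 15.6, 15.2 and 18.8 CPM (log2 difference 0.49 ± 0.11, edgeR adjusted p 0.0277). Tubb3 passed in all 6 leave-one-out fits, Pou4f1 in 4 and Ebf1 in 2. Elavl3, Stmn2 and Elavl4, which follow Tubb3 in the list, were not called. Elavl3 was at 12.5, 14.4 and 15.4 against 11.1, 11 and 12 CPM (log2 difference −0.31 ± 0.14, edgeR adjusted p 0.355), without overlap. Stmn2 was at 15.8, 21.7 and 18.9 against 10.6, 11.4 and 13.8 CPM (log2 difference −0.66 ± 0.17, edgeR adjusted p 0.0675), again without overlap. 

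Of 19 neural progenitor and Notch genes 3 were lower, against 0.702% of all tested genes, and 0 higher, with a median of 0.0096. That median changed sign with single libraries, from −0.055 (without heterozygous replicate 1) to 0.046 (without heterozygous replicate 2). The Notch pathway gene Dll3, expressed in newborn neurons, was at 9.15, 9.13 and 9.77 against 5.23, 5.5 and 5.59 CPM (log2 difference −0.78 ± 0.13, edgeR adjusted p 0.00596). Fabp7 was called here too. Dll3 passed in all 6 leave-one-out fits and Fabp7 in 2, and the count was 1 without heterozygous replicate 2 or any 1 of the homozygous libraries. Sox2 was not called. Among 31 guidance genes 3 were called, against 1.89% of all tested genes. Epha3, an ephrin receptor, was lower at 18.1, 17.3 and 18.3 against 10.5, 7.89 and 10.7 CPM (log2 difference −0.89 ± 0.13, edgeR adjusted p 0.00143). Dcc, the netrin receptor, was lower at 20.7, 30.9 and 22.7 against 16, 14 and 15.1 CPM (log2 difference −0.72 ± 0.15, edgeR adjusted p 0.021). Nrp2, a receptor for class 3 semaphorins and VEGF that endothelium and crest use, was higher at 94.7, 71 and 84.7 against 149.9, 129.6 and 127 CPM (log2 difference 0.70 ± 0.094, edgeR adjusted p 0.00115). Epha3 and Nrp2 passed in all 6 leave-one-out fits and Dcc in 2, and DESeq2 called 6 of the 31. 

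**Figure D3:**
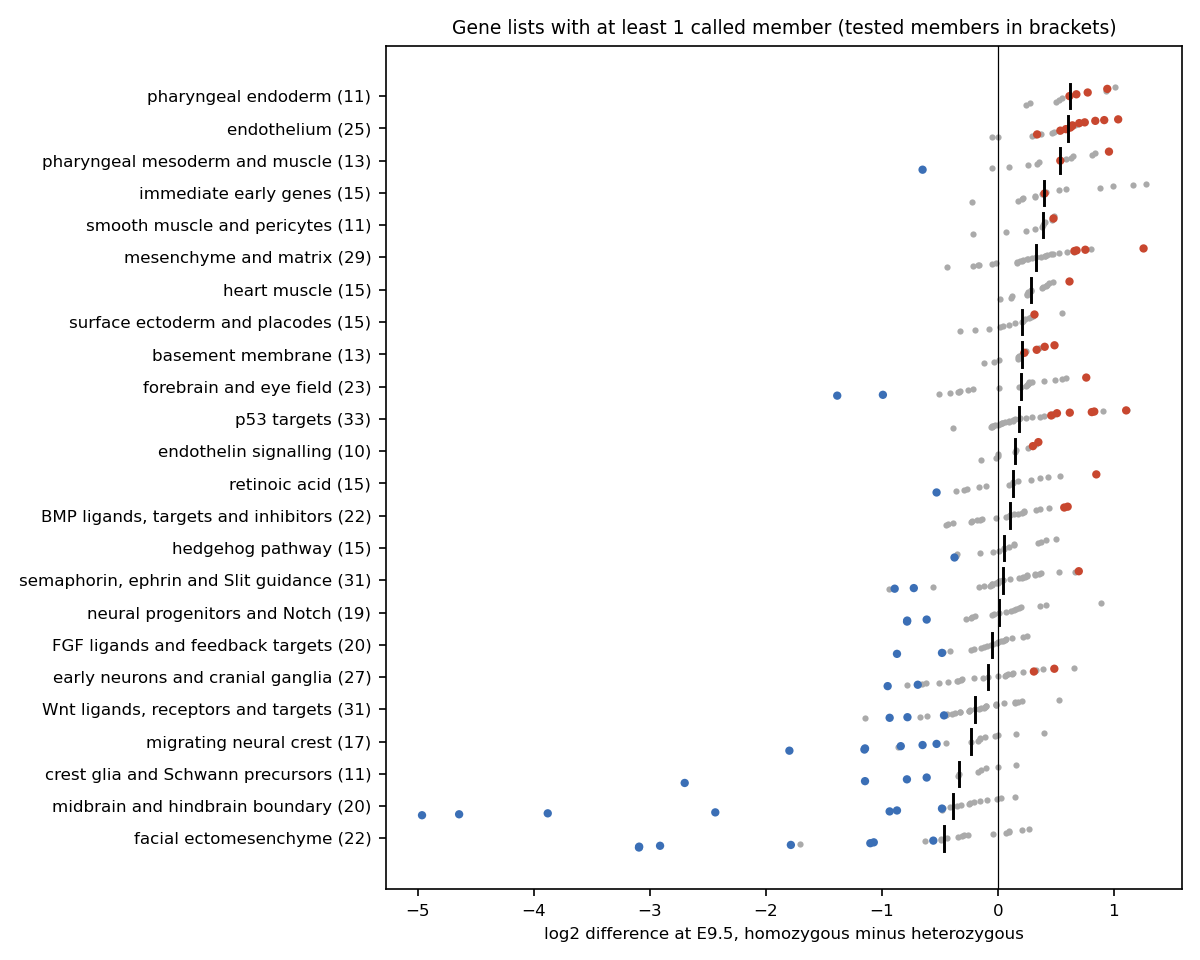
Log2 difference at E9.5 (horizontal axis) of each tested member of the 24 gene lists with a called member, 1 row per list, ordered by the median (black bar). Called members are red where higher and blue where lower, the remaining members grey. The medians of the facial ectomesenchyme, boundary and crest lists lie to the left of 0 and those of pharyngeal endoderm and endothelium to the right.

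Of the 42 lists, that of endothelium held the most rises. Of 25 listed and tested, 12 were higher and 0 lower, 24 had a positive difference and the median was 0.60. Of all tested genes 1.19% were called higher. The groups did not overlap for 20 of the 25, against 20.9% of all tested genes. The receptor Tek, which binds angiopoietins, was at 29.5, 22.3 and 27.9 CPM in heterozygous libraries and 40.9, 40.1 and 43.5 in homozygous ones, a log2 difference of 0.64 ± 0.088 (edgeR adjusted p 0.00108). The 3 VEGF receptors were higher too. Kdr was at 65.4, 49.3 and 71.9 against 105, 90.3 and 94.8 CPM (log2 difference 0.64 ± 0.11, edgeR adjusted p 0.00768). Flt1, which also acts as a decoy, was at 17.6, 13.3 and 18.1 against 25.6, 25.7 and 24.1 CPM (log2 difference 0.62 ± 0.10, edgeR adjusted p 0.00585). Flt4, later a lymphatic receptor, was at 15.1, 10.6 and 16.3 against 27.7, 20.7 and 22.2 CPM (log2 difference 0.75 ± 0.15, edgeR adjusted p 0.0249). Cdh5, the endothelial cadherin, was at 29.8, 23.7 and 32.7 against 50.1, 45.6 and 44.4 CPM (log2 difference 0.70 ± 0.13, edgeR adjusted p 0.0113). The receptor Tie1 was at 23.3, 16.8 and 25.1 against 34.8, 31.3 and 34.7 CPM (log2 difference 0.63 ± 0.12, edgeR adjusted p 0.0154). Among transcription factors Sox7 (log2 difference 0.92 ± 0.17, edgeR adjusted p 0.0113), Sox18 (log2 difference 0.84 ± 0.20, edgeR adjusted p 0.0444) and Etv2 (log2 difference 1.04 ± 0.25, edgeR adjusted p 0.0444) were higher. So was the TGF-beta coreceptor Eng (log2 difference 0.59 ± 0.13, edgeR adjusted p 0.0268). Ramp2, a coreceptor for adrenomedullin (log2 difference 0.54 ± 0.12, edgeR adjusted p 0.0333), and the secreted Egfl7 (log2 difference 0.34 ± 0.078, edgeR adjusted p 0.0334) completed the 12. Pecam1, an adhesion molecule of the same cells, did not overlap between groups (18.9, 11.5 and 19 against 25.5, 23.4 and 26 CPM) and was not called (log2 difference 0.60 ± 0.15, edgeR adjusted p 0.0647). Tal1, shared by blood and endothelial precursors, was at 23.2 ± 0.99 CPM heterozygous and 22.5 ± 4.34 CPM homozygous (mean ± SD, n = 3), a difference of −0.049 ± 0.13 (edgeR adjusted p 0.934). Heterozygous replicate 2 was the lowest heterozygous library in 11 of the 12 called genes. The 25 genes summed to 424, 307 and 440.3 in heterozygous and 604, 516 and 569 in homozygous libraries, in CPM. Without heterozygous replicate 2, 8 genes were called and the median was 0.45, without homozygous replicate 1 the count was 4 and without homozygous replicate 3 it was 5. Fitting the E9.5 libraries alone called 4, scaling by total counts 6 and adding the Y-linked level as a covariate 7, while DESeq2 called 17. Tek, Kdr, Flt1 and Cdh5 passed in all 6 leave-one-out fits, Sox7 in 5, Tie1 and Flt4 in 4, Eng, Ramp2 and Egfl7 in 2, and Sox18 and Etv2 in 1. 

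Genes of blood gave no call. None of 11 tested genes of primitive erythroid cells was called with edgeR (0 at an unadjusted p under 0.05, 0 with DESeq2). All 11 had a negative difference, with a median of −0.19. That median ran from −0.43 (without homozygous replicate 3) to 0.0042 (without homozygous replicate 2). The list summed to 4396 to 5728 in heterozygous and 3165 to 5625 in homozygous libraries, in CPM. Of the 13 macrophage genes 5 passed the filter on low counts and 0 were called, at a summed 3.55 to 7.46 and 4.72 to 6.45 CPM. All 15 heart muscle genes had a positive difference, with a median of 0.29 that was 0.45 without homozygous replicate 1. Nkx2-5, described with the endoderm, was the 1 called gene. Of all tested genes 49.2% were positive and 1.19% were called higher. The heart list summed to 4236, 6529.7 and 4073 in heterozygous and 4783, 7094 and 5635 in homozygous libraries, in CPM, ranges that overlap. Among 11 tested genes of smooth muscle and pericytes 1 was higher, against the same 1.19%, and the median was 0.39. This was Tagln, an actin-binding protein, at 80.6, 82 and 76.3 against 95.8, 122 and 114 CPM (log2 difference 0.47 ± 0.095, edgeR adjusted p 0.018). It passed in 3 of the 6 leave-one-out fits. Acta2, smooth muscle actin, differed by 0.39 ± 0.26 (edgeR adjusted p 0.6). The part of differing tissue content in the endothelial result was not tested.

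**Figure D4:**
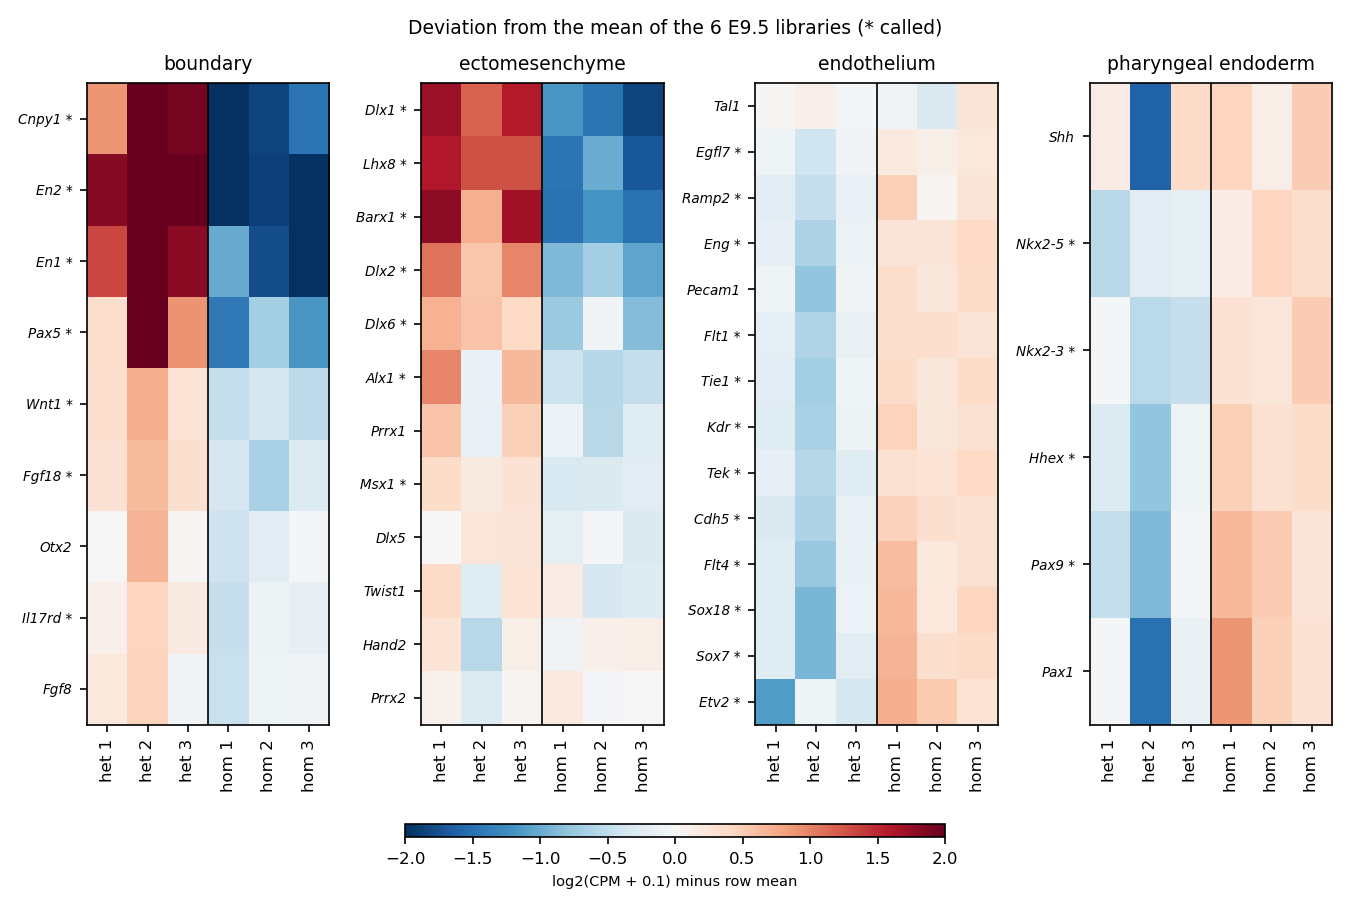
Deviation of each gene from its mean over the 6 E9.5 libraries, as log2(CPM + 0.1), for the members of 4 lists that the text names (rows, sorted by difference, called genes starred) in each library (columns, het is heterozygous and hom homozygous). Red is above and blue below the row mean, with the colours capped at −2 and 2. Heterozygous replicate 2 has the highest boundary and the lowest endothelial and pharyngeal endoderm levels for most starred rows, and the called genes also separate the other heterozygous libraries from the homozygous ones.

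In the pharynx, the foregut tube that the arches enclose, the called endoderm genes were all higher. All 11 tested genes of pharyngeal endoderm had a positive difference, 4 of them called, with a median of 0.62, where 49.2% of all tested genes were positive and 1.19% were called higher. Pax9, a paired-box factor of the pouches, was at 2.47, 1.85 and 3.37 CPM in heterozygous libraries and 5.53, 4.97 and 4.16 in homozygous ones (log2 difference 0.94 ± 0.18, edgeR adjusted p 0.0137). Hhex, needed for the thyroid bud, was at 2.04, 1.41 and 2.34 against 3.51, 3.1 and 3.26 CPM (log2 difference 0.78 ± 0.18, edgeR adjusted p 0.0365). The homeobox gene Nkx2-3 was at 4.24, 2.91 and 3.09 against 5.26, 5.07 and 6.11 CPM (log2 difference 0.68 ± 0.15, edgeR adjusted p 0.032). Nkx2-5, shared by heart and pharynx, was at 11.9, 15.2 and 15.5 against 19.4, 23.5 and 22.4 CPM (log2 difference 0.62 ± 0.15, edgeR adjusted p 0.0444). Pax1, the partner of Pax9, did not overlap at 4.82, 1.67 and 4.48 against 9.14, 6.85 and 6.0 CPM and was not called (log2 difference 1.01 ± 0.31, edgeR adjusted p 0.147). The list summed to 109, 86.9 and 113 in heterozygous and 139, 149 and 137 in homozygous libraries, in CPM. No member held its call throughout: Pax9 passed in 5 of the 6 leave-one-out fits, Hhex and Nkx2-3 in 1 and Nkx2-5 in 0. The count fell to 0 without homozygous replicate 1, to 1 without heterozygous replicate 2 or homozygous replicates 2 or 3, and to 2 without heterozygous replicate 1. It was 1 with the E9.5 libraries alone or with the Y-linked level as a covariate, 2 with scaling by total counts and 5 with DESeq2.

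In pharyngeal mesoderm and muscle precursors, 2 of 13 tested genes were higher and 1 lower, against 1.19% and 0.702% of all tested genes, with a median of 0.54. The median was 0.22 without homozygous replicate 1 and 0.39 without heterozygous replicate 2. Tbx1, the T-box factor of pharyngeal mesoderm and endoderm, was at 12.9, 11.3 and 12.6 CPM in heterozygous libraries and 23.5, 23.9 and 24.1 in homozygous ones, a log2 difference of 0.96 ± 0.12 (edgeR adjusted p 0.00092). It passed in all 6 leave-one-out fits. The lower gene was Pax3, already described among crest factors. The muscle precursor gene Tcf21 was at 4.85, 2.79 and 3.66 against 5.09, 5.44 and 6.45 CPM (log2 difference 0.59 ± 0.19, edgeR adjusted p 0.142). The related factor Msc was at 1.49, 0.675 and 1.14 against 1.62, 1.6 and 1.99 CPM (log2 difference 0.65 ± 0.27, edgeR adjusted p 0.29). Both did not overlap between groups and were not called. Of 15 tested genes of surface ectoderm and placodes Epcam, an epithelial adhesion molecule, was higher at 60.2, 59.5 and 52.1 against 65.6, 79.2 and 68.6 CPM (log2 difference 0.31 ± 0.074, edgeR adjusted p 0.04); it passed in 2 of the 6 leave-one-out fits, those without heterozygous replicate 1 or homozygous replicate 1. 

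Retinoic acid patterns the pharynx and hindbrain, and its breakdown by CYP26 enzymes limits where it acts. Cyp26c1, a cytochrome P450 that degrades it in head mesenchyme and hindbrain, had the smallest adjusted p of all rises, at 20.3, 23.6 and 19.9 CPM in heterozygous libraries and 40.6, 36.9 and 37.8 in homozygous ones, a log2 difference of 0.85 ± 0.084 (edgeR adjusted p 7.5e-05). The libraries of each genotype lay close together and the call was kept in all 6 leave-one-out fits. Of the 15 genes of the pathway Crabp1 was the other called one, and it was lower. The count of 2, where 1.89% of all tested genes were called, was 4 without heterozygous replicate 2, 3 without homozygous replicate 3 and 1 with scaling by total counts or the E9.5 libraries alone. The synthesis enzymes were not called: Aldh1a2 was at 8.24 ± 3.6 CPM heterozygous and 10.6 ± 8.22 CPM homozygous and Aldh1a3 at 73.1 ± 7.35 CPM heterozygous and 89.1 ± 23.8 CPM homozygous (mean ± SD, n = 3). 

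Some matrix genes were higher. Of 29 tested genes of mesenchyme and matrix 4 were higher and 0 lower, 23 had a positive difference and the median was 0.33. Over all tested genes 1.19% were called higher and 49.2% were positive. Cd44, the hyaluronan receptor, was at 12.6, 12.6 and 12.3 CPM in heterozygous libraries and 19.1, 22.5 and 21.8 in homozygous ones (log2 difference 0.76 ± 0.094, edgeR adjusted p 0.000637). Of the collagen VI chains, Col6a1 was at 6.71, 5.14 and 6.54 against 10.4, 9.46 and 9.56 CPM (log2 difference 0.68 ± 0.13, edgeR adjusted p 0.0113). Col6a2 was at 7.77, 5.14 and 8.2 against 11.5, 10.4 and 11.4 CPM (log2 difference 0.66 ± 0.15, edgeR adjusted p 0.0319). Itga11, a collagen receptor, was at 0.701, 0.675 and 1.1 against 1.99, 1.63 and 2.29 CPM (log2 difference 1.26 ± 0.27, edgeR adjusted p 0.0218). Cd44 and Col6a1 passed in all 6 leave-one-out fits and Col6a2 and Itga11 in 2; the count was 2 without homozygous replicate 1 or 3 and with scaling by total counts. Without heterozygous replicate 2, the median was 0.20. Of 13 basement membrane genes 4 were higher, against the same 1.19%, and 0 lower, with a median of 0.21. Col4a1, a chain of the main basement membrane collagen, was at 369.8, 276 and 392 against 523, 469 and 465 CPM (log2 difference 0.49 ± 0.10, edgeR adjusted p 0.0178). The laminin chain Lamb1 was at 163, 156 and 157 against 197, 217 and 186 CPM (log2 difference 0.34 ± 0.060, edgeR adjusted p 0.00768). Lama4, a laminin chain of vessel walls (log2 difference 0.41 ± 0.090, edgeR adjusted p 0.0281), and Col18a1 (log2 difference 0.23 ± 0.056, edgeR adjusted p 0.0468) were the others. Lamb1 passed in all 6 leave-one-out fits, Col4a1 in 5, Lama4 in 2 and Col18a1 in 0, and the count was 2 without heterozygous replicate 2 or homozygous replicate 2 and 1 without homozygous replicate 1. Scaling by total counts called 0 of the 13, and the E9.5 libraries alone 2. Col3a1, a chain of connective tissue collagen, ranged widely at 402, 171 and 452 against 663, 444 and 514 CPM and was not called (log2 difference 0.66 ± 0.34, edgeR adjusted p 0.465). 

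Among p53 targets the calls were all rises. Of 33 tested targets 6 were higher and 0 lower, 27 had a positive difference and the median was 0.18, against 1.19% called higher and 49.2% positive among all tested genes. Cdkn1a, the cell cycle inhibitor p21, was at 5.34, 6.16 and 6.0 CPM in heterozygous libraries and 13.2, 12.1 and 12.4 in homozygous ones, a log2 difference of 1.11 ± 0.24 (edgeR adjusted p 0.04). Eda2r, a receptor of the TNF receptor family, was at 10.5, 10.2 and 9.63 against 20.9, 17.7 and 14.7 CPM (log2 difference 0.81 ± 0.14, edgeR adjusted p 0.00704). Ddit4l, an inhibitor of mTOR, was at 3.29, 3.35 and 2.91 against 5.83, 5.77 and 5.44 CPM (log2 difference 0.83 ± 0.14, edgeR adjusted p 0.00637). Tnfrsf10b, the TRAIL receptor, was at 6.89, 8.01 and 9.31 against 12.6, 11.2 and 13.4 CPM (log2 difference 0.62 ± 0.14, edgeR adjusted p 0.0285). Ak1, an adenylate kinase, was at 22, 24.2 and 23.7 against 32.7, 34.7 and 32.2 CPM (log2 difference 0.51 ± 0.094, edgeR adjusted p 0.00957). Ccng1, cyclin G1, was at 77.9, 80.7 and 70.7 against 111, 105 and 99.5 CPM (log2 difference 0.46 ± 0.10, edgeR adjusted p 0.0312). Eda2r, Ddit4l and Ak1 passed in all 6 leave-one-out fits and Tnfrsf10b in 2. Cdkn1a and Ccng1 passed in none, with adjusted p up to 0.133 and 0.114, although their groups lay apart in all 6 libraries. The count was 3 without heterozygous replicate 2 or homozygous replicates 1 or 3, 3 with scaling by total counts, 8 with DESeq2 and 10 with the E9.5 libraries fitted alone. Mdm2 was at 54 ± 3.3 CPM heterozygous and 55.3 ± 3.01 CPM homozygous and Trp53, the gene of p53, at 86.5 ± 1.68 CPM heterozygous and 90.6 ± 3.3 CPM homozygous (mean ± SD, n = 3), differences of 0.033 ± 0.062 (edgeR adjusted p 0.9) and 0.066 ± 0.088 (edgeR adjusted p 0.842). Of 9 tested genes of p53 and its regulators 0 were called (0 at an unadjusted p under 0.05, 0 with DESeq2). 

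The promoter windows of these targets were read from RefSeq (GRCm38.p6), from 250 bases before to 50 after the start site, and searched for the 10-base p53 half-site, which reads the same on both strands. Of the 33 tested targets 26 had a window. The half-site was found in 12 of them, 3 of 5 called ones included, and for 906 of 11036 tested genes (8.21%). Among called higher genes with a window 15 of 125 (12%) held it and among called lower ones 6 of 81 (7.41%). The windows around the match in the 3 called targets are shown because these are the called targets that hold it. Capitals mark the half-site, and a match is a description and not a proven site. Counted from the start site, the matches span −73 to −64 and −51 to −42 in Cdkn1a, −185 to −176 in Ccng1 and −90 to −81 in Ddit4l.
Cdkn1a, chr17:29090886-29090935, plus strand: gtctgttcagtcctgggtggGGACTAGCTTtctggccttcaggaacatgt
Cdkn1a, chr17:29090908-29090957, plus strand: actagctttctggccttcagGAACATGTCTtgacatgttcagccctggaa
Ccng1, chr11:40755442-40755491, minus strand: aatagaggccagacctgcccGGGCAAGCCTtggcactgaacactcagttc
Ddit4l, chr3:137623562-137623611, plus strand: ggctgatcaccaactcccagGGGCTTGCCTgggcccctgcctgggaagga

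Other genes chosen by the naming rule lie outside the lists. Among the falls, AA465934 was at 8.78, 9.3 and 6.29 against 0.978, 1.26 and 1.39 CPM (log2 difference −2.75 ± 0.26, edgeR adjusted p 7.5e-05) and passed in all 6 leave-one-out fits. Gmnc, a regulator of multiciliated cells, was at 2.38, 1.53 and 2.1 against 0.0337, 0.215 and 0.713 CPM (log2 difference −2.68 ± 0.50, edgeR adjusted p 0.0129) and was not called without homozygous replicate 2. Lhx9, a LIM homeobox gene, was at 4.48, 2.52 and 1.35 against 0.708, 0.522 and 1.09 CPM (log2 difference −1.88 ± 0.37, edgeR adjusted p 0.018). Tfap2e, an AP-2 factor, was at 0.335, 1.12 and 0.533 against 0.0674, 0.0614 and 0.188 CPM (log2 difference −2.66 ± 0.55, edgeR adjusted p 0.0194). Each passed in 3 of the 6. Among the rises, Adamtsl3, a secreted matrix protein, was at 0.396, 0.147 and 0.071 against 0.877, 0.829 and 0.975 CPM (log2 difference 2.06 ± 0.41, edgeR adjusted p 0.0166), the lowest value being 2 counts. Lepr, the leptin receptor, was at 2.68, 1.5 and 3.09 against 6.34, 5.16 and 5.44 CPM (log2 difference 1.23 ± 0.22, edgeR adjusted p 0.00768). Rasd1, a Ras-like GTPase, was at 0.945, 0.851 and 0.923 against 2.09, 1.97 and 1.95 CPM (log2 difference 1.14 ± 0.20, edgeR adjusted p 0.00662). Fmo1, a flavin monooxygenase, was at 3.05, 4.58 and 3.55 against 8.13, 5.71 and 8.36 CPM (log2 difference 0.98 ± 0.16, edgeR adjusted p 0.00585). These 3 passed in all 6 leave-one-out fits. The other rises passed in 0 to 3 of them. They included Fam169b (log2 difference 1.30 ± 0.27, edgeR adjusted p 0.0184) and the transcriptional repressor Hic1 (log2 difference 1.18 ± 0.29, edgeR adjusted p 0.0459). Ndufa4l2 (log2 difference 1.09 ± 0.25, edgeR adjusted p 0.0336), the epithelial factor Grhl1 (log2 difference 1.07 ± 0.23, edgeR adjusted p 0.022) and Gm15663 (log2 difference 1.0 ± 0.24, edgeR adjusted p 0.0459) belonged to them as well. So did Naalad2 (log2 difference 0.98 ± 0.20, edgeR adjusted p 0.0154) and Islr (log2 difference 0.97 ± 0.24, edgeR adjusted p 0.0468). Islr shares exons with Islr2, which was lower (log2 difference −1.31 ± 0.30, edgeR adjusted p 0.04), so that counts of the 2 may not be separate. Of the 98 called genes named here 21 share exon positions with a gene on the other strand, whose reads may be mixed in if strand was not used: Axin2, Cdkn1a, Col4a1, Dlx1, Dlx6, Dysf, Egfl7, Eng, Fam169b, Fst, Gas1, Gm15663, Islr2, Mab21l2, Naalad2, Ndufa4l2, Pax5, Pax9, Rax, Tagln and Tnfaip2. The share was 24% of all called lower and 26.1% of called higher genes, against 30.7% of tested genes.

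The rises with the smallest adjusted p included modest ones. Cgnl1, a junction protein, was at 93.3, 84.1 and 81.5 against 117, 122 and 123 CPM (log2 difference 0.48 ± 0.062, edgeR adjusted p 0.000788). Anxa6, a membrane-binding annexin, was at 67.1, 59.3 and 72.2 against 100.5, 94.6 and 97.3 CPM (log2 difference 0.56 ± 0.073, edgeR adjusted p 0.00092). The kinase gene Zak was at 47.3, 52.8 and 51.4 against 69.3, 71.4 and 72.1 CPM (log2 difference 0.49 ± 0.065, edgeR adjusted p 0.00092). Tnfaip2 was at 6.55, 6.16 and 6.78 against 11, 10.9 and 10.5 CPM (log2 difference 0.73 ± 0.10, edgeR adjusted p 0.00092). Dysf, a membrane repair protein, was at 19.1, 16.2 and 17.6 against 29.3, 28.6 and 24.9 CPM (log2 difference 0.65 ± 0.091, edgeR adjusted p 0.00133). The 5 passed in all 6 leave-one-out fits. 

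Several basic programmes gave no call. For 18 of the 42 lists 0 members passed with edgeR, and since 1.89% of all tested genes were called, 0 calls in a list of this size lie near the background. None of the 30 other core spliceosome proteins (differences −0.086 to 0.070; 0 at an unadjusted p under 0.05, 0 with DESeq2) or of the 12 SR splicing factors (−0.080 to 0.17; 0 and 0) was called. The 18 mitosis genes ran from −0.094 to 0.0074 (0 and 0) and the 18 DNA replication genes from −0.24 to 0.029 (2 at an unadjusted p under 0.05, 0 with DESeq2). The 32 ribosomal protein genes had a median of −0.078 (4 and 1), and the 11 genes of nonsense-mediated decay one of 0.0063 (0 and 0). ATF4 targets (21 tested, median 0.075; 5 and 2), hypoxia and glycolysis genes (23, 0.12; 4 and 1), imprinted growth regulators (14, 0.13; 4 and 2) and interferon genes (6, 0.16; 0 and 0) were without a call as well. So were yolk sac endoderm (6 tested; 1 and 0), pigment cells (3; 1 and 1) and trunk Hox genes (6; 1 and 0). Without homozygous replicate 1, 2 hypoxia and glycolysis genes were called, and 1 each of the DNA replication, ribosomal protein and trunk Hox genes. Without heterozygous replicate 1, 2 imprinted genes were called. The hypoxia and glycolysis median was 0.022 without homozygous replicate 2, and the interferon median 0.065 without homozygous replicate 3. The ribosomal protein median ran from −0.119 to −0.043 and that of nonsense-mediated decay from −0.019 to 0.043. The yolk sac gene Afp was at 20.7, 0.0587 and 0.0355 against 0.0674, 0.0614 and 0 CPM, high in heterozygous replicate 1. The trunk Hox list summed to 22.7, 10.4 and 11.3 in heterozygous and 13.2, 9.15 and 4.31 in homozygous libraries, in CPM, with heterozygous replicate 1 highest. Of 15 immediate early genes Klf6 was called, higher at 46, 40.1 and 47.5 against 55.4, 59.3 and 61.3 CPM (log2 difference 0.40 ± 0.079, edgeR adjusted p 0.015), in 3 of the 6 leave-one-out fits, and the median was 0.40. Without homozygous replicate 2 that median was 0.25.

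Whether the genotype difference at E9.5 differed from that at E9.0 was tested gene by gene as an interaction, which called 10 of 14810 genes (0.0675%), with 1274 at an unadjusted p under 0.05. No boundary, migrating crest or endothelial gene named above was among them, so their differences were not shown to be particular to E9.5. Lhx8, Barx1, Dlx1 and Msx1 of the face, Trh and Cd44 were. Lhx8 was at 0.22, 0.322 and 0.215 against 0.376, 0.344 and 0.608 CPM in the heterozygous against homozygous E9.0 libraries, and the difference between stages was −3.88 ± 0.55 (SE; edgeR adjusted p 0.0181). Barx1 was at 0.587, 0.858 and 0.387 against 1.05, 0.745 and 1.62 CPM at E9.0 (difference between stages −3.82 ± 0.60, edgeR adjusted p 0.0301). Dlx1 was at 3.08, 3.33 and 2.32 against 2.48, 2.0 and 2.23 CPM (difference between stages −2.72 ± 0.32, edgeR adjusted p 0.00349). Msx1 was at 31, 30.4 and 33.3 against 35.5, 33.2 and 33.8 CPM (difference between stages −0.67 ± 0.10, edgeR adjusted p 0.0198). In heterozygous libraries Lhx8, Barx1, Dlx1 and Msx1 were higher in each E9.5 library than in any E9.0 one, while of the 4 only Barx1 was so in the homozygous libraries. Trh was at 8.44, 8.58 and 11.8 against 6.77, 8.88 and 7.9 CPM at E9.0 (difference between stages −2.91 ± 0.41, edgeR adjusted p 0.0213). Cd44 was at 17.5, 17.9 and 15.2 against 17.4, 15.3 and 14.4 CPM (difference between stages 0.86 ± 0.14, edgeR adjusted p 0.0213). For 2 p53 targets the rise was larger at the earlier stage. Ccng1 was at 27.4, 39 and 40.9 against 102, 95.8 and 94.3 CPM at E9.0 (difference between stages −0.97 ± 0.15, edgeR adjusted p 0.0213). Phlda3, an inhibitor of Akt, was at 4.26, 4.24 and 5.98 against 22.9, 19.8 and 35.5 CPM at E9.0 and at 14.4, 11.5 and 12.5 against 19.6, 16.7 and 17.1 CPM at E9.5 (difference between stages −1.93 ± 0.28, edgeR adjusted p 0.0213). The count of 10 rested on single libraries. It was 1 without homozygous E9.5 replicate 3 and 2 without homozygous E9.5 replicate 2 or heterozygous E9.0 replicate 2. It was 4 without replicate 1 of either E9.5 group or homozygous E9.0 replicate 3. Leaving out heterozygous E9.0 replicate 1 gave 6, and leaving out heterozygous E9.5 replicate 2 gave 16. For the lists, differences between stages were not tested, and the medians stand side by side. At E9.0 and E9.5 they were −0.25 and −0.38 for the boundary, −0.19 and −0.23 for migrating crest, −0.074 and −0.46 for facial ectomesenchyme, 0.19 and 0.60 for endothelium, 0.24 and 0.62 for pharyngeal endoderm and 0.58 and 0.18 for p53 targets.

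**Figure D5:**
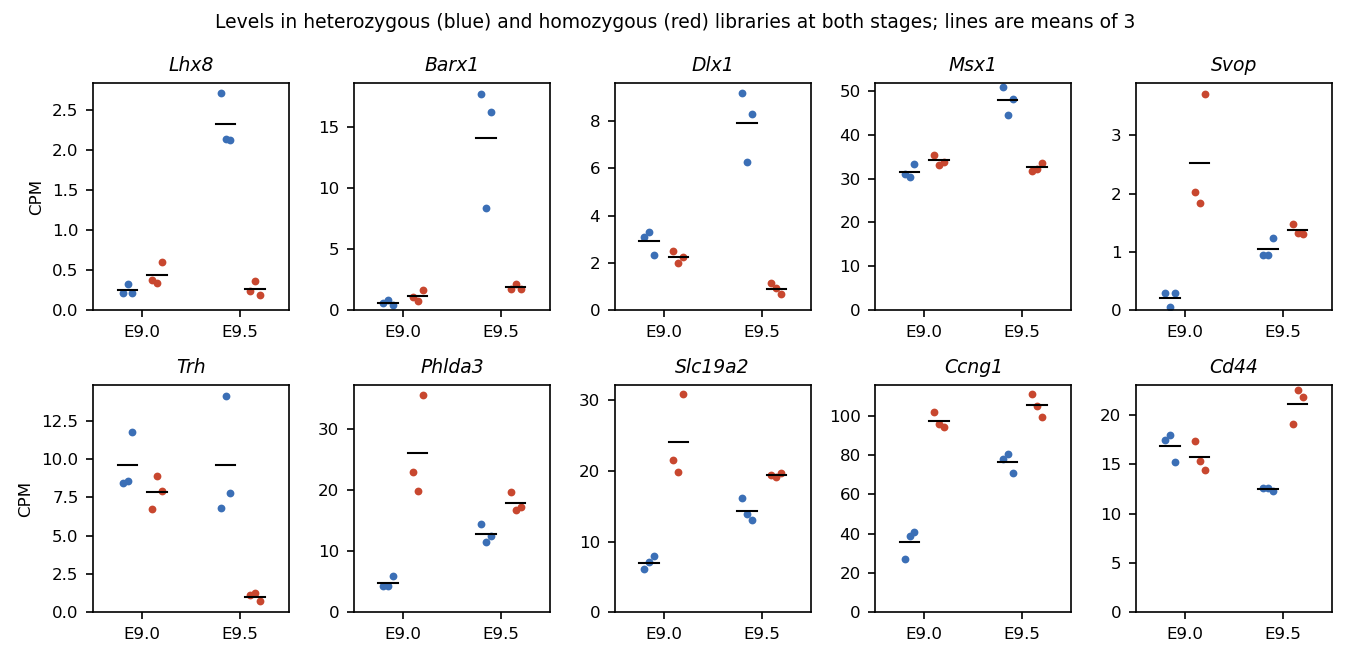
CPM (vertical axis, from 0) of the 10 genes with a called difference between stages, at E9.0 and E9.5, heterozygous in blue and homozygous in red, 1 point per library and a line at each mean (n = 3). Barx1, Dlx1, Msx1 and Trh overlap between genotypes at E9.0 and separate at E9.5, and Phlda3 and Ccng1 lie further apart at E9.0 than at E9.5.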

How the data were processed

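Bulk RNA sequencing gave 1 table of gene counts for 12 libraries. The authors deposited raw counts per gene symbol. Per the submitters' processing notes, cutadapt, STAR, featureCounts and MultiQC were used with mm10; versions, annotation and strand setting are not given in the sources used here. No column (0) lacked a sample. Labels do not say whether replicates were separate litters, so p-values measure only the spread between these samples, part of which may be technical. As described above, Xist and Y-linked transcripts differed among the E9.5 replicates of either genotype. Those replicates were therefore not all repeats of 1 sample. Whether they came from different litters was not tested.

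Genes passing filterByExpr (14810 of 24421 symbols) were scaled by TMM and fitted with edgeR 4.0.16 in R 4.3.3 as 4 group means over all 12 libraries, which share 1 estimate of the spread (biological coefficient of variation 8.77%). The quasi-likelihood test with robust dispersion was two-sided, and Benjamini-Hochberg adjusted p under 0.05 over all tested genes made a call. Each SE is the log2 difference divided by the square root of F. The difference between stages was a contrast of contrasts. The 42 gene lists, the comparison and its tests were written from general knowledge with earlier results of these data known, so lists are described by counts and medians, with no test of a list.

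Genes were named by a rule: the targeted gene, Mdm2, Trp53, Ccng1 and Cdkn1a; the 15 largest falls and rises among called genes with at least 10 mean counts and groups that do not overlap; the 10 smallest adjusted p in each direction; called list members; and the first 4 of each list, given singly or within their list's range. A few of these names are left out of the text but kept in every count. Alternatives used DESeq2 1.42.0 and limma 3.58.1, other scalings, filters and designs, and left out each library in turn. The Y-linked covariate and the block with GC correction were chosen after seeing the data. GENCODE M21 and RefSeq GRCm38.p6 gave names, lengths, GC and promoters, and python 3.11.15 drew the plots with matplotlib 3.10.9. On simulated counts the test recovered 61.2% of 1.5-fold, 79.1% of 2-fold and 95.5% of 4-fold changes. These counts were drawn independently for each gene and library. Shifts that many genes of 1 library share, as in heterozygous replicate 2, were therefore not simulated.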

Additional observations from a re-analysis of the deposited data

Results flagged for a closer look

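For 10 genes the genotype difference at E9.5 differed from that at E9.0 in the edgeR test of the difference itself, with E9.5 minus E9.0 given on the log2 scale. In the face these were Lhx8 (difference between stages −3.88 ± 0.55, edgeR adjusted p 0.0181), Barx1 (difference between stages −3.82 ± 0.60, edgeR adjusted p 0.0301), Dlx1 (difference between stages −2.72 ± 0.32, edgeR adjusted p 0.00349) and Msx1 (difference between stages −0.67 ± 0.10, edgeR adjusted p 0.0198). Trh, the hormone precursor, followed (difference between stages −2.91 ± 0.41, edgeR adjusted p 0.0213). Cd44, the hyaluronan receptor, was the 1 gene with a positive value (difference between stages 0.86 ± 0.14, edgeR adjusted p 0.0213), and its E9.0 groups overlapped. Phlda3 (difference between stages −1.93 ± 0.28, edgeR adjusted p 0.0213) and Ccng1 (difference between stages −0.97 ± 0.15, edgeR adjusted p 0.0213), both p53 targets, were higher in every homozygous library at either stage. Slc19a2, a thiamine transporter, stood at 6.09, 7.13 and 7.91 against 21.6, 19.8 and 30.9 CPM at E9.0 and 16.1, 13.9 and 13 against 19.5, 19.2 and 19.7 CPM at E9.5 in heterozygous against homozygous libraries (difference between stages −1.32 ± 0.21, edgeR adjusted p 0.0213). Svop, a synaptic vesicle protein, stood at 0.294, 0.0536 and 0.301 against 2.03, 1.83 and 3.72 CPM at E9.0 and 0.945, 0.939 and 1.24 against 1.48, 1.32 and 1.31 CPM at E9.5 (difference between stages −3.11 ± 0.53, edgeR adjusted p 0.0377). Slc19a2, Svop and Phlda3 were not called at E9.5 alone. Rn45s took 6.05% to 37.4% of the counts in the E9.0 libraries against 4.4% to 5.9% at E9.5. With Rn45s left out of the TMM scaling the test called 10 genes, all of them among these 10.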

How the results depend on the processing

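The count of 280 genes stayed within 1.5 times under 12 alternatives of scaling, filter and design, from 231 with the Y-linked level as a covariate to 415 with GC and length correction (limma-voom 388, no filter 365). The genes themselves changed more than the count. Of 266 genes called with the E9.5 libraries alone 190 were among the 280, and of 231 with the Y-linked covariate 201. Of the 98 called genes named in the text, the E9.5 libraries alone lost 36, the Y-linked covariate 21 and scaling by total counts 37. It was 123 with total counts (58 higher, 65 lower), 448 with DESeq2 (301 higher, 147 lower), 13 against a 1.5-fold change, all of them lower, and 81 at an adjusted p under 0.01. Leaving out 1 library gave 133 to 301. Fewer samples or a stricter test enter some of these by construction; for the others the cause was not tested. Eftud2 passed the threshold with DESeq2 (−0.19, adjusted p 0.0134) and with GC and length correction (−0.20, adjusted p 0.0148), the adjusted p ran from 0.0134 to 1.0 over all alternatives, and its log2 difference without 1 library ran from −0.21 to −0.16. The 10 genes that differ between stages became 76 with DESeq2, 5 with limma-voom, 2 against a 1.5-fold change, 20 with GC and length correction and 1 at an adjusted p under 0.01, and 1 to 16 without 1 library (16 without heterozygous E9.5 replicate 2, 1 without homozygous E9.5 replicate 3). The E9.5 libraries alone cannot give that test.

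Same-numbered heterozygous and homozygous libraries correlated at 0.0455, 0.0309 and 0.0689 in their deviations from the group means, none over 0.1, and not every library correlated best with its own number, so the numbers were not taken to pair samples. A fit with the replicate block called 393 genes at E9.5, 21 between stages, and Eftud2 at −0.19 (adjusted p 0.133). The block called 17 endothelial genes. The block with GC and length correction, chosen after seeing the data, called 615 and 31, and Eftud2 at −0.20 (adjusted p 0.0228).

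The 5232 alternative values covered 188 results, which were single genes, differences between stages and counts of called list members. Of these values 4442 stayed the same, 544 lost the call, 36 gained it, 199 moved and 11 changed sign. For a gene, the same means that direction and side of the threshold were kept, and for a list a count within 1.5 times. The 199 that moved were counts of lists. The sign changes were in 8 genes that were not called. The lowest and highest log2 differences without 1 library were in these ranges: Aldh1a2 (−0.47 to 0.72), Erbb3 (−0.23 to 0.026), Hand2 (−0.14 to 0.24), Mdm2 (−0.012 to 0.082), Prrx2 (−0.0094 to 0.17), Sox2 (−0.055 to 0.10), Sox9 (−0.058 to 0.059), Tal1 (−0.20 to 0.076). Low counts limit the precision of genes such as Lhx8, Cnpy1, Gmnc, Tfap2e, Adamtsl3 and Svop, whose levels rest on few reads in some libraries.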
